A study of Rattus norvegicus with 24 samples.

Results

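Transcript levels were compared directly between rat pups exposed in utero to a Low Protein maternal diet and pups exposed to methylazoxymethanol acetate (MAM), a DNA methylating agent. The samples were the 6 Low Protein and 6 MAM pups among the 24 pups of the series, and no saline-treated pup entered the difference. A gene was tested if its mean level reached 0.1 TPM, the transcript abundance scaled to library size that the authors deposited, in both groups, which kept 9763 of the 17420 genes in the table. The genes just inside this limit were Slc25a45, with means of 0.10004 TPM in Low Protein and 0.116 in MAM, and Ripk3, with means of 0.104 and 0.100045. Just outside were Syt6 and Tox2, whose Low Protein means were 0.09996 and 0.0999 TPM.

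RNA came from the dissected hippocampus and neocortex of Sprague-Dawley embryos on embryonic day 18. Low Protein dams ate a diet of 6.1% protein from gestational day 11 to 18. MAM dams were injected with 22 mg/kg on gestational day 17, and their pups were collected 18 hours later. Saline dams were injected on the same day, and the values of their 6 pups are set beside the comparison without being tested. The fit behind the p-values took its estimate of the spread from all 24 pups. These include the saline pups and pups of dams injected that day with polyinosinic:polycytidylic acid (Poly I:C), whose values are not given. The diet of the MAM dams and any injection of the Low Protein dams are not given in the sources used here, so that agent, length of exposure and injection cannot be told apart. Each group held 3 pups from each of 2 litters. The dam received the treatment and litter mates share a dam, so the p-values describe the spread between pups.

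Cells short of an amino acid accumulate uncharged transfer RNA, which activates the kinase Gcn2 and favors translation of the transcription factor Atf4. Atf4, with C/EBP partners, raises transcription of genes for amino acid synthesis, uptake and charging onto transfer RNA, and stress of the endoplasmic reticulum (ER) reaches the same factor through another kinase. MAM alkylates DNA in dividing neural precursors, and damaged DNA stabilizes p53, a transcription factor whose targets stop the cell cycle, repair DNA or start apoptosis. The genes of both routes are given below by role.

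Promoters of both pathways are shown first because most genes that differed at an adjusted p under 0.05, though not Pmm1, belong to them. Only promoters with a match are printed. Of the genes printed, Tars and Cdkn1a differed at that level, and Iars, Mars, Pycr1, Aen, Gtse1 and Ccng1 did not. Each sequence runs 5′ to 3′ over the 250 bases before the gene's promoter start, the start that the promoter set assigns. Positions are on the GRCr8 assembly, which is not the assembly used for the reads. For some genes the promoter start is not the 5′ end of the gene in RefSeq. That end was at 7150820 for Cdkn1a, 142224499 for Aen, 118829793 for Gtse1 and 15193716 for Iars. The stretches of Cdkn1a, Aen and Iars thus lie partly, and that of Gtse1 wholly, inside the gene. Capitals mark matches to the C/EBP-ATF response element core, TGATGNAA on either strand, in the genes of amino acid metabolism. The positions were Tars at chr2:62114803-62115052 (minus strand), Iars at chr17:15193653-15193902 (minus strand), Mars at chr7:65023754-65024003 (minus strand) and Pycr1 at chr10:106420813-106421062 (minus strand).
Tars: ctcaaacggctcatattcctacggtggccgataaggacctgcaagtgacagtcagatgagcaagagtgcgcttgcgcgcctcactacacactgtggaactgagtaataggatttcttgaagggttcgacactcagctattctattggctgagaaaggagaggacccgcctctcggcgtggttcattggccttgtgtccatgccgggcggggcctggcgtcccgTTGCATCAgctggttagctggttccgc
Iars: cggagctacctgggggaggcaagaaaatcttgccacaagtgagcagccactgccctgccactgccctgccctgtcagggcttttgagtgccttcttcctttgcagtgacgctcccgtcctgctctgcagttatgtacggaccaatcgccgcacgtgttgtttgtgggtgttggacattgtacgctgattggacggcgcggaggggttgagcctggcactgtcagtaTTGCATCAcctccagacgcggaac
Mars: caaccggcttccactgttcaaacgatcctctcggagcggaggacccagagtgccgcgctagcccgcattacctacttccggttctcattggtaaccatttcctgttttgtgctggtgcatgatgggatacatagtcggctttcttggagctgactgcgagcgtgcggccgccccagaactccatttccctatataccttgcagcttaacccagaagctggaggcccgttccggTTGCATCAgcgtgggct
Pycr1: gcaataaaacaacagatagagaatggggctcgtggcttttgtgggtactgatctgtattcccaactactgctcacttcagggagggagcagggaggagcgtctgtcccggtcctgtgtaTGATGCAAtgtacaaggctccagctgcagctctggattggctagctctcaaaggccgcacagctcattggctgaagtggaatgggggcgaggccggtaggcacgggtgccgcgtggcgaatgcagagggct
The core began 27 bases before the promoter start of Tars, 24 before that of Iars, 17 before that of Mars and 131 before that of Pycr1. In windows from 250 bases before to 50 after the start, it occurred in 14 of 40 promoters found for the amino acid response genes, or 35.0%, against 1332 of 33469 promoters of all genes, or 3.98%. The aminoacyl-tRNA synthetases held 7 of these matches in 11 promoters, or 63.6%. The windows of Lars, Mthfd2, Psat1, Asns and Atf4 held no match. In the p53 target genes, capitals mark the 10-letter p53 half-site, whose match reads on both strands at the same place. The positions were Cdkn1a at chr20:7150682-7150931 (plus strand), Aen at chr1:142224283-142224532 (plus strand), Gtse1 at chr7:118829923-118830172 (plus strand) and Ccng1 at chr10:25684877-25685126 (minus strand).
Cdkn1a: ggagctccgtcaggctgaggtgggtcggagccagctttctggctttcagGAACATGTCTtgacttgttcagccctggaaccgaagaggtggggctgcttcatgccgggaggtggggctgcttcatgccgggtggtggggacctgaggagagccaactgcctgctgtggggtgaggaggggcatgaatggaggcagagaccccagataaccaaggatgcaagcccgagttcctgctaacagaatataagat
Aen: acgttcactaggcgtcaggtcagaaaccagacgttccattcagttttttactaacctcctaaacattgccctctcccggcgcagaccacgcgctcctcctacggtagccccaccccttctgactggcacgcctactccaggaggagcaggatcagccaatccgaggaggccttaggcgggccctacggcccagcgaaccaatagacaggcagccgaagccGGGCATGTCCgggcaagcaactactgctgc
Gtse1: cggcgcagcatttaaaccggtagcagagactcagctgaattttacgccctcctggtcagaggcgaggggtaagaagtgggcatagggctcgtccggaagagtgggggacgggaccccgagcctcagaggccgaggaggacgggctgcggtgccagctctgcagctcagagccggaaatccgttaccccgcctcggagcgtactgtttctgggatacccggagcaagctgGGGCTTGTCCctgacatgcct
Ccng1: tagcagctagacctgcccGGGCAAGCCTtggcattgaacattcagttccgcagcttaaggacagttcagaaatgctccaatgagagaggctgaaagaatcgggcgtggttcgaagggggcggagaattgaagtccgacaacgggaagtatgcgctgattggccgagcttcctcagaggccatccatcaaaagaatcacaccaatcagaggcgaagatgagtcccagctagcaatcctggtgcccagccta
This half-site lay 201 bases before the promoter start of Cdkn1a, 30 before that of Aen, 21 before that of Gtse1 and 232 before that of Ccng1. These distances are not from the RefSeq gene ends given above. It occurred in 8 of 26 p53 target promoters, or 30.8%, against 7.98% of all promoters. The window of Phlda3 held none. A match describes the letters and does not show that a factor was bound. The amino acid response and p53 target lists hold genes assigned to these routes, chosen with earlier results of these data known. A higher share of the C/EBP-ATF core or the p53 half-site on them is therefore description and not a test. The shares of all promoters cover every promoter in the promoter set, not only those of genes tested.

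The dissection was checked against regional markers. Tbr1, a transcription factor of cortical projection neurons, ranged from 10.4 to 15.2 TPM in Low Protein and from 11.8 to 15.7 in MAM. The 6 hindbrain and spinal cord markers in the table summed to at most 0.123 TPM in any of them. Read depth was estimated from the steps between low values, in megareads, at 25 to 62.7 per Low Protein pup, with a median of 44.4 and pup 1.2 the shallowest of the 12, and at 35.3 to 65.1 per MAM pup, with a median of 42.5. Eif2s3y and Ddx3, both on the Y chromosome, were above 0.1 TPM in 4 of 6 pups of each group. In homogenized tissue, fewer cells of a type and less RNA per cell cannot be told apart.

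With limma, 6 of the 9763 genes, or 0.0615%, differed at an adjusted p under 0.05. Threonyl-, leucyl- and asparaginyl-tRNA synthetase (Tars, Lars and Nars) and the mitochondrial folate enzyme Mthfd2 were higher in Low Protein pups. The cell cycle inhibitor Cdkn1a and the phosphomannomutase Pmm1 were higher in MAM pups. At an unadjusted p under 0.05, 958 genes differed where 488.15 would be expected from the threshold alone. Of these, 775 were higher in Low Protein, or 7.94% of genes tested, and 183 were higher in MAM, or 1.87%. Other ways to scale the pups moved this split. With the deposited scaling 80.9% of the 958 genes were higher in Low Protein, whereas the share was 54.5% after division by median-of-ratios factors and 56.8% by upper-quartile factors. The median log2 difference of all genes was 0.043 with the deposited scaling and 0.006 with the median of ratios, and 6381 of the 9763 genes, or 65.4%, had a positive difference with the deposited scaling. Differences were small, and 30 genes combined an unadjusted p under 0.05 with an absolute log2 difference of at least 0.5.

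**Figure D1:**
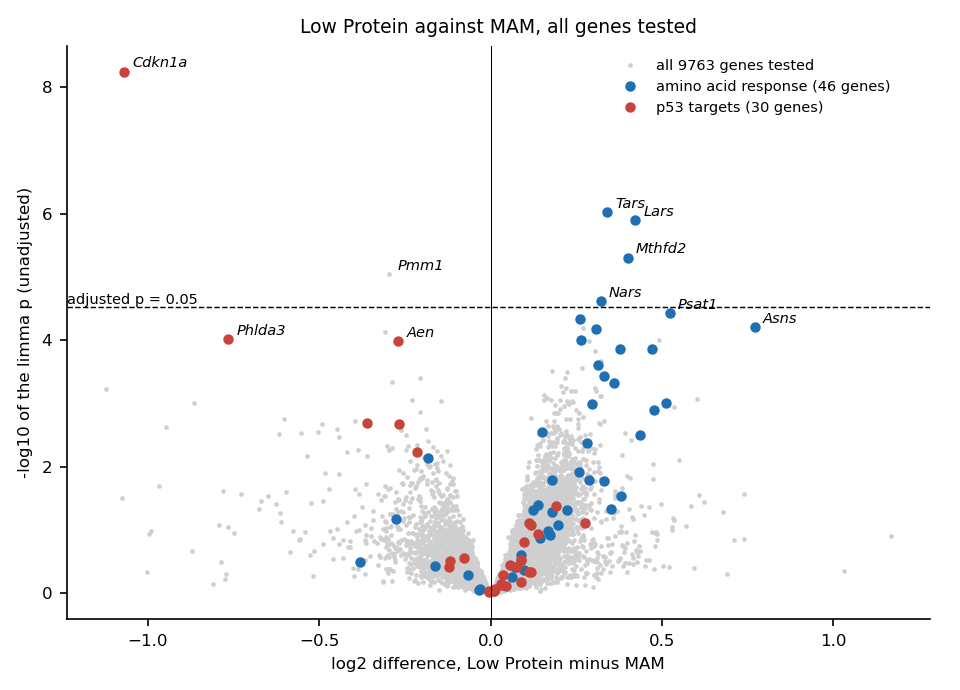
Each point is 1 of 9763 genes, with the log2 difference (Low Protein minus MAM) on the x axis and −log10 of the unadjusted limma p on the y axis; the dashed line marks an adjusted p of 0.05. Cdkn1a, at −1.07, and Pmm1, at −0.30, lie above the line on the MAM side, and 4 amino acid response genes (blue) lie above it on the Low Protein side.

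Aminoacyl-tRNA synthetases load each amino acid onto its transfer RNA. All 12 listed members were higher in Low Protein at an unadjusted p under 0.05, against 7.94% of all genes, and 3 passed the adjusted threshold. These members, like the whole amino acid response and p53 target lists, were chosen with earlier results of these data known. Their counts beside the share of all genes are therefore description and not a test. Their median log2 difference was 0.32, against 0.04 for all genes. In 8 of the 12 the values of the groups did not overlap, against 0.758% of all genes that were higher in Low Protein without overlap. Tars measured 2.24, 2.53 and 2.80 TPM (lowest, median and highest pup) in Low Protein and 1.85, 1.98 and 2.11 in MAM. Every Low Protein pup thus lay above every MAM pup, and saline pups, at 2.22 ± 0.149 TPM (SD, n = 6), overlapped with both groups. The log2 difference of Tars was 0.34 (standard error 0.052, limma adjusted p = 0.00416; exact permutation test, two-sided, p = 0.00216, the smallest that 6 against 6 pups can give). Any gene without overlap gives this permutation p, and Tars was named for lack of overlap, so the permutation p adds no separate evidence.

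Lars ranged from 1.15 to 1.41 TPM in Low Protein, with a median of 1.31, and from 0.915 to 1.00 in MAM, with a median of 0.967. Its log2 difference was 0.42 (standard error 0.065, limma adjusted p = 0.00416), and saline pups averaged 1.12 ± 0.119 TPM (SD, n = 6). For Nars the lowest, median and highest values were 5.17, 6.11 and 6.53 TPM in Low Protein and 4.43, 4.66 and 5.09 in MAM. The difference in Nars was 0.32 on the log2 scale (standard error 0.061, limma adjusted p = 0.0393). Among the 12 fits that left out a single pup, Nars passed only without Low Protein pup 1.1, Low Protein pup 1.3 or MAM pup 1.1, so that its call was close to the threshold. With litter as a random block its adjusted p was 0.0524, and the other 5 genes still passed. The next synthetases did not pass: Gars (glycine) differed by 0.26 with an adjusted p of 0.0560, Aars (alanine) by 0.31 with 0.0596, and Cars (cysteine) by 0.47 and Iars (isoleucine) by 0.38 with 0.0715. Sars and Wars, for serine and tryptophan, had the smallest differences of the 12, at 0.15 and 0.12.

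Other synthetases were grouped after their values were seen. Among 8 further cytosolic members 3 were higher in Low Protein at an unadjusted p under 0.05, with a median log2 difference of 0.11, and among 11 mitochondrial members 1 was, with a median of 0.04. Of all genes, 7.94% were higher in Low Protein at this level, and the mitochondrial count lay near that share. Rars, the arginine enzyme, averaged 1.74 TPM in Low Protein and 1.52 in MAM.

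**Figure D2:**
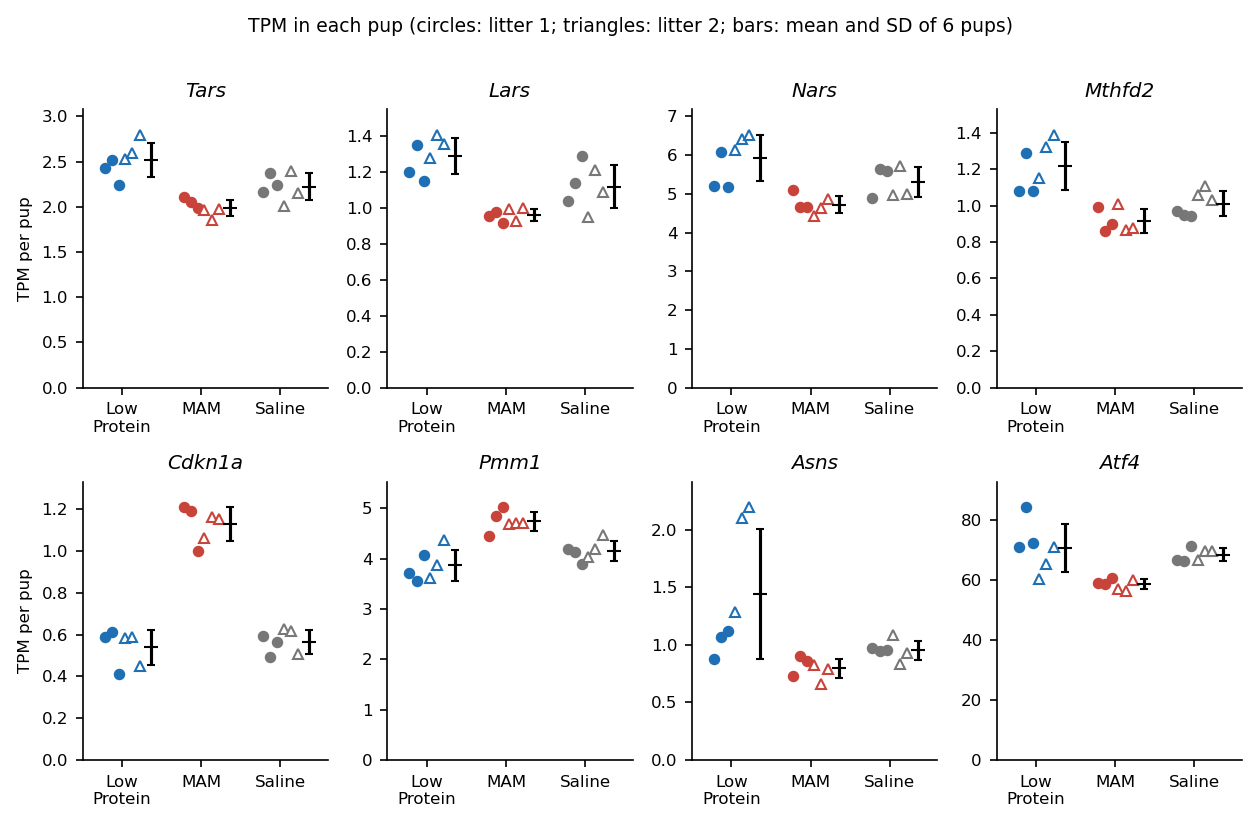
TPM in each pup (y axis, from 0) for 8 genes in Low Protein, MAM and saline pups, with circles for litter 1, triangles for litter 2, and bars for the mean and SD of 6 pups. The 6 genes past the adjusted threshold do not overlap between Low Protein and MAM, Cdkn1a overlaps between Low Protein and saline pups, and the highest Asns values, 2.10 and 2.20 TPM, belong to Low Protein litter 2.

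Serine and one-carbon enzymes make serine from a glycolytic intermediate and pass its carbon to folate. Mthfd2, which oxidizes methylene-folate in mitochondria, measured 1.08, 1.22 and 1.39 TPM in Low Protein (lowest, median and highest) and 0.861, 0.888 and 1.01 in MAM. The groups did not overlap, and the log2 difference was 0.40 (standard error 0.068, limma adjusted p = 0.0121). Saline pups averaged 1.01 ± 0.067 TPM (SD, n = 6). Psat1, the aminotransferase of serine synthesis, also showed no overlap, with 2.10 to 3.08 TPM in Low Protein and 1.56 to 1.96 in MAM, but its difference of 0.52 had an adjusted p of 0.0523. Psph and Shmt2, which act after it, had differences of 0.33 and 0.26. Phgdh, the first enzyme of the route, averaged 1.25 TPM in Low Protein and 1.18 in MAM, a difference of 0.07. In all, 4 of 6 members tested were higher in Low Protein at an unadjusted p under 0.05, against 7.94% of all genes, and 1 passed the adjusted threshold.

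Asparagine synthetase (Asns), a much used readout of Atf4, had the largest log2 difference of the amino acid response list, 0.77 (standard error 0.159), but an adjusted p of 0.0596. Its lowest, median and highest values were 0.879, 1.20 and 2.20 TPM in Low Protein and 0.665, 0.810 and 0.902 in MAM, so that the lowest Low Protein pup lay within the MAM range. Low Protein litter 2 averaged 1.86 TPM and litter 1 averaged 1.02, beside 0.955 in saline pups. Pycr1, the last enzyme of proline synthesis, averaged 2.65 ± 0.438 TPM in Low Protein and 2.05 ± 0.162 in MAM (SD, n = 6), and Aldh18a1, the first, 0.199 and 0.175 TPM; neither passed after adjustment.

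Amino acid transporters had smaller and more variable differences. Among the 10 members 4 were higher in Low Protein at an unadjusted p under 0.05, against 7.94% of all genes. Of the 10, 0 passed the limma adjusted threshold, and the median log2 difference was 0.18. Slc7a3 and Slc7a1, which carry cationic amino acids, differed by 0.51 and 0.43, and Slc7a5, which carries large neutral ones, by 0.29. Slc3a2, the heavy chain that Slc7a5 pairs with, differed by 0.20. Slc7a3 ranged from 1.96 to 3.69 TPM in Low Protein and from 1.67 to 2.07 in MAM. The groups overlapped, and the 3 highest of the 12 values were all from Low Protein litter 2.

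Atf4 itself averaged 70.7 ± 8.11 TPM in Low Protein, 58.6 ± 1.63 in MAM and 68.4 ± 2.14 in saline (SD, n = 6). MAM pups reached at most 60.6 TPM, while Low Protein pups started at 60.2 and saline pups at 66.4. The difference of 0.26 between Low Protein and MAM had an adjusted p of 0.0596. The 12 stress regulators tested were mixed, with 8 positive and 4 negative differences, a median of 0.12 and a range from −0.38 to 0.48. At an unadjusted p under 0.05, 5 were higher in Low Protein and 1 in MAM, against 7.94% and 1.87% of all genes. On the positive side, Chac1, which degrades glutathione, differed by 0.48, Atf5 by 0.38 and Ddit3, a pro-apoptotic partner of C/EBP, by 0.28, none past the adjusted threshold. Ddit4, an inhibitor of mTORC1, was the 1 amino acid response gene on the MAM side at an unadjusted p under 0.05, with means of 37.1 TPM in Low Protein and 42.1 in MAM.

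Over the whole amino acid response list, 46 of 53 genes passed the limit on low values. Of these, 39 had a positive log2 difference, against 65.4% of all genes. At an unadjusted p under 0.05, 29 were higher in Low Protein and 1 in MAM, against 7.94% and 1.87% of all genes, and 4 passed the adjusted threshold. The median was 0.26, against 0.04 for all genes. Without Low Protein litter 2, 17 genes were higher in Low Protein at an unadjusted p under 0.05, with a median of 0.14, and without Low Protein litter 1, 30 genes with a median of 0.36. The synthetases had 9 to 12 members at that level over the alternatives, whereas transporters had 2 without Low Protein pup 2.2, without Low Protein litter 2 or without either MAM litter. The saline mean lay between the 2 group means for 29 of the 46 genes, or 63.0%, against 33.1% of all genes tested. In 27 of these 29 genes Low Protein was the higher group and MAM the lower. A mean falls between 2 others more often when those lie further apart, so these shares are description and not a test.

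The 2 Low Protein litters did not hold the same pattern. A pup's score, its mean log2 value over the 46 genes relative to the 12 pups, was 0.14 to 0.35 in Low Protein litter 2 and −0.15 to 0.13 in litter 1. MAM pups scored −0.16 to −0.037 and saline pups −0.13 to 0.046. Low Protein litter 2 thus lay above all MAM and saline pups, while litter 1 overlapped with both. Atf5 averaged 9.49 TPM in litter 2 and 5.06 in litter 1, Cars 1.65 and 1.12, and Psat1 2.85 and 2.15. The order was the other way for Atf4, at 65.5 TPM in litter 2 and 75.9 in litter 1. Leaving out litter 1 raised the number of genes past the adjusted threshold from 6 to 18, of which 16 were on the amino acid response list. Leaving out litter 2 lowered it to 3, namely Atf4, Cdkn1a and Ifrd1. No test of a difference between litters was made, since a litter is 3 pups of 1 dam.

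**Figure D3:**
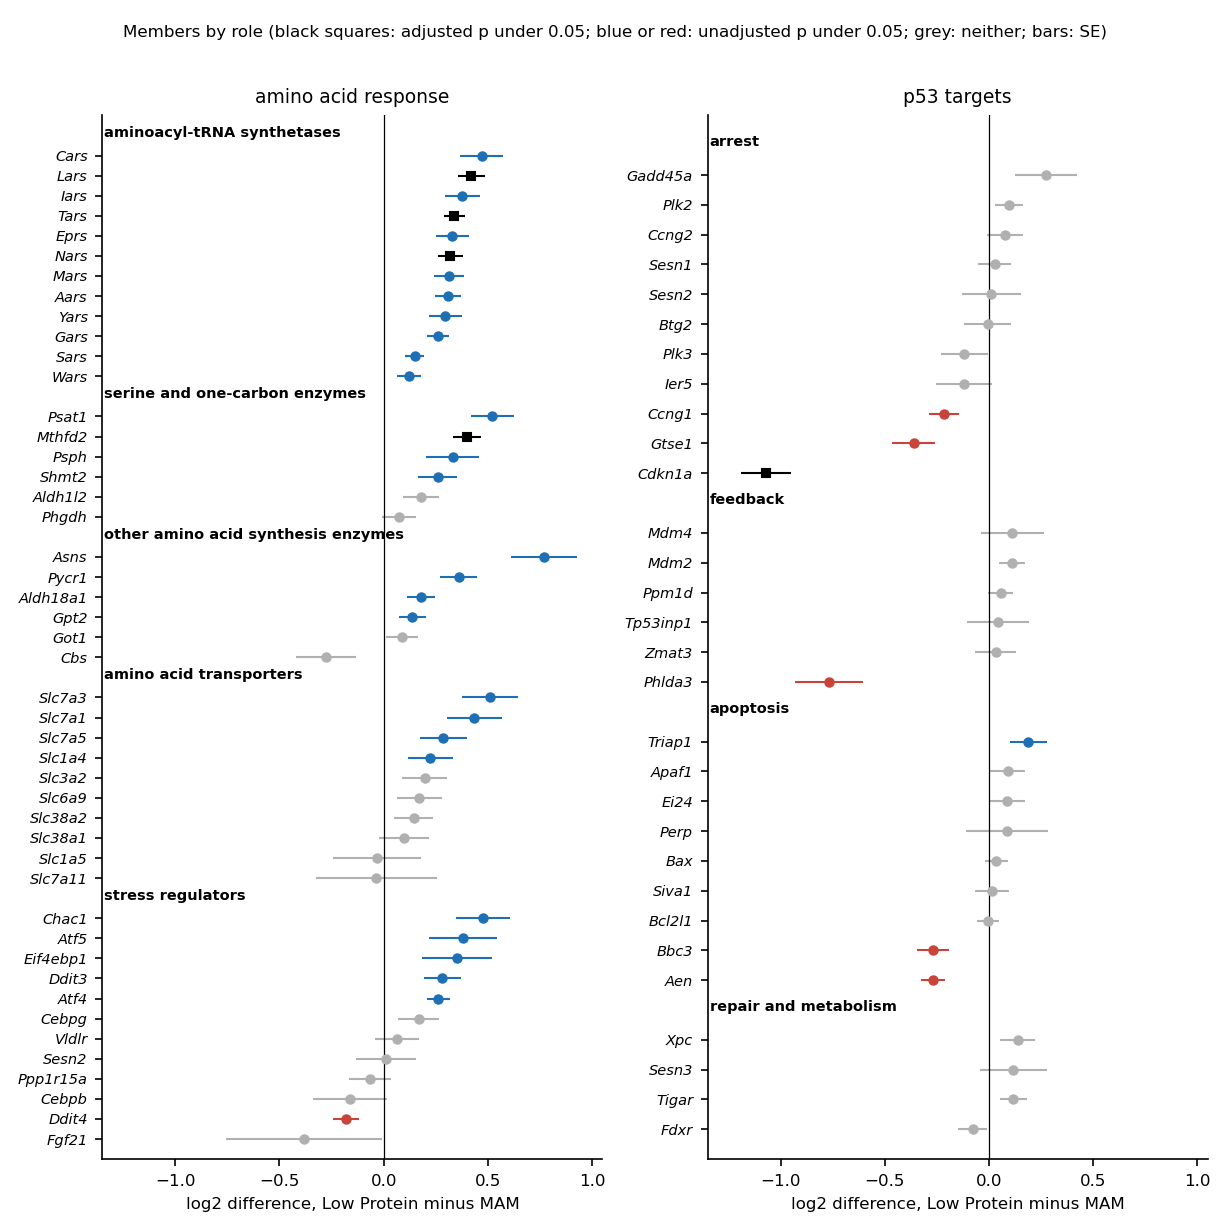
Log2 difference (x axis, Low Protein minus MAM, with bars for the standard error) of the 46 amino acid response and 30 p53 target genes tested, grouped by role, with black squares past the adjusted threshold. All 12 synthetases lie to the right of 0, while in each p53 group most genes lie near 0 and Cdkn1a and Phlda3 lie far to the left.

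Cdkn1a encodes p21, which binds cyclin-dependent kinases and is the standard target of p53. It measured 1.00, 1.16 and 1.21 TPM in MAM (lowest, median and highest) and 0.412, 0.585 and 0.612 in Low Protein. The groups were far apart, and the MAM level was 2.10-fold that of Low Protein, with a log2 difference of −1.07 (standard error 0.120, limma adjusted p = 5.55e-05). Saline pups ranged from 0.492 to 0.626 TPM, close to the Low Protein pups. Both MAM litters averaged 1.13 TPM, and the Low Protein litters 0.538 and 0.539. Cdkn1a passed the adjusted threshold in 28 of 29 alternative fits, the exception being the fit of litter means (adjusted p = 0.14, over a range from 1.8e-06). The reads behind these values were estimated at 188 to 1011 per pup.

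Most of the p53 target list did not share this difference. Of 44 genes, 38 were in the table and 30 passed the limit on low values. At an unadjusted p under 0.05, 6 were higher in MAM, against 1.87% of all genes, and 1 was higher in Low Protein, against 7.94%. The median log2 difference was 0.03. Beside Cdkn1a, the 6 were Phlda3, a repressor of Akt signaling, Aen, an apoptosis nuclease, Gtse1, which binds p53 in G2, Bbc3, which encodes the apoptosis inducer Puma, and cyclin G1 (Ccng1). Values did not overlap for 4 of them, namely Cdkn1a, Phlda3, Aen and Gtse1, against 0.215% of all genes that were higher in MAM without overlap.

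Phlda3 ranged from 1.22 to 2.05 TPM in MAM and from 0.660 to 1.14 in Low Protein, and saline pups spanned 0.701 to 1.63. Its log2 difference of −0.77 (standard error 0.164) had an adjusted p of 0.0596. Aen measured 2.11, 2.17 and 2.36 TPM in MAM and 1.62, 1.82 and 2.06 in Low Protein, beside a saline mean of 1.73 ± 0.150 (SD, n = 6). The difference in Aen was −0.27, also with an adjusted p of 0.0596. Aen passed the adjusted threshold in 3 of 30 alternatives, namely median-of-ratios scaling, upper-quartile scaling and the fit without Low Protein pup 2.1. Gtse1 averaged 0.991 TPM in MAM, 0.776 in Low Protein and 0.728 in saline, and Bbc3 2.26, 1.88 and 1.89 TPM. For these 4 genes the Low Protein mean lay within 1 SD of the saline mean. Phlda3 was listed among the 6 feedback genes, and the other 5 had differences from 0.03 to 0.11. Among them Mdm2, the ubiquitin ligase of p53, averaged 1.52 TPM in MAM and 1.64 in Low Protein, and the phosphatase Ppm1d 0.560 and 0.583. Bax, Btg2 and Plk2, further targets, had differences of 0.04, −0.01 and 0.10.

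Among genes that repair alkylated DNA, 12 were tested, with a median log2 difference of 0.06 over the list. At an unadjusted p under 0.05, 1 was higher in MAM, against 1.87% of all genes. This was Alkbh2, an oxidative demethylase, with means of 0.766 TPM in MAM and 0.655 in Low Protein (adjusted p = 0.367). Mpg, the glycosylase that removes methylated purines, averaged 1.11 and 0.993 TPM.

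Pmm1, which isomerizes mannose phosphate for glycan synthesis, measured 4.45, 4.71 and 5.03 TPM in MAM and 3.55, 3.79 and 4.37 in Low Protein. The groups did not overlap, and the log2 difference was −0.30 (standard error 0.053, limma adjusted p = 0.0179). Saline pups averaged 4.16 ± 0.190 TPM (SD, n = 6), between the groups. Mcat, a mitochondrial fatty acid synthesis enzyme, was next, with 1.84 to 2.00 TPM in MAM, 1.41 to 1.60 in Low Protein and 1.63 to 2.03 in saline (log2 difference −0.31, adjusted p = 0.0596). Tmem205, Syngr1, Mlycd and Ccdc166 also had no overlap between groups, with differences from −0.18 to −0.40 and adjusted p from 0.154 to 0.309. On the Low Protein side, Sec62, a subunit of the ER translocon, and Larp7, which stabilizes 7SK RNA, had no overlap and differences of 0.27 and 0.29, both with an adjusted p of 0.0596.

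No gene on the lists of protein folding, ribosomes and oxidative phosphorylation passed the adjusted limma threshold. Over all genes 65.4% of differences were positive, 7.94% of genes were higher in Low Protein at an unadjusted p under 0.05, and the median was 0.04. Of 19 ER chaperones and folding enzymes, 19 had a positive difference and 9 an unadjusted p under 0.05, with a median of 0.13. Hspa5, the main ER chaperone, averaged 39.6 TPM in Low Protein, 33.7 in MAM and 39.7 in saline, and Dnajb11 2.36, 2.08 and 2.27 TPM. For both genes the saline mean was nearer to the Low Protein mean than to the MAM mean. Without MAM litter 2, 2 of the 19 remained at an unadjusted p under 0.05. Ribosomal protein and oxidative phosphorylation genes had medians nearer to that of all genes. Among cytosolic ribosomal proteins 55 of 78 differences were positive and 11 were higher in Low Protein and 1 in MAM at an unadjusted p under 0.05, with a median of 0.07, and with the median of ratios scaling 2 were higher in Low Protein, and without MAM litter 1 none (0 of 78). Leaving out single pups moved this count between 4, without MAM pup 1.1, and 18, without MAM pup 2.3. Rpl4 and Rpl5 had differences of 0.17 and 0.19. Among mitochondrial ribosomal proteins 13 of 72 were higher in Low Protein, led by Mrps7 with 0.25, and 3 with the median of ratios. The oxidative phosphorylation list had 11 of 65 members higher in Low Protein and a median of 0.05, and 3 higher with the median of ratios or 4 without Low Protein pup 2.3, with Ndufs1, a complex I subunit, at 1.54 TPM in Low Protein and 1.25 in MAM (adjusted p = 0.0718).

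Further groups were formed after their values were seen and are given as description, beside 7.94% of all genes higher in Low Protein and 1.87% higher in MAM at an unadjusted p under 0.05. Ribosome biogenesis genes were higher in Low Protein for 17 of 37 members at an unadjusted p under 0.05, with a median of 0.14, and for 6 without Low Protein litter 1. They include Nop56 of the box C/D ribonucleoproteins, with means of 19.5 TPM in Low Protein and 16.7 in MAM, and Utp3 of the small subunit processome, with 19.1 and 15.4. Subunits of the cytosolic chaperonin were higher for 7 of 8, with Cct6a at 12.5 and 10.6 TPM. Without Low Protein litter 1 the count was 0 of 8, and without Low Protein pup 1.2 or MAM pup 1.1 it was 4. For both groups the higher values came from Low Protein litter 1, whose mean scores were 0.12 and 0.16, against 0.027 and −0.0004 in litter 2. Initiation factors were higher in Low Protein for 10 of 52, and for 4 without Low Protein pup 1.2, among them the Eif2b subunit Eif2b1 with a difference of 0.18 and the helicase Eif4a1 with 0.15. Glycolytic enzymes lay on the MAM side, with 15 of 18 differences negative, against 3382 of 9763 for all genes. At an unadjusted p under 0.05 there were 6, but 1 without MAM pup 2.2, without MAM litter 2 or without Low Protein litter 2. The count was 3 without Low Protein pups 1.3 or 2.3 or MAM pups 1.1 or 2.1. Eno1 averaged 22.3 TPM in MAM and 19.4 in Low Protein (adjusted p = 0.139), and Ldha 17.5 and 15.4.

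**Figure D4:**
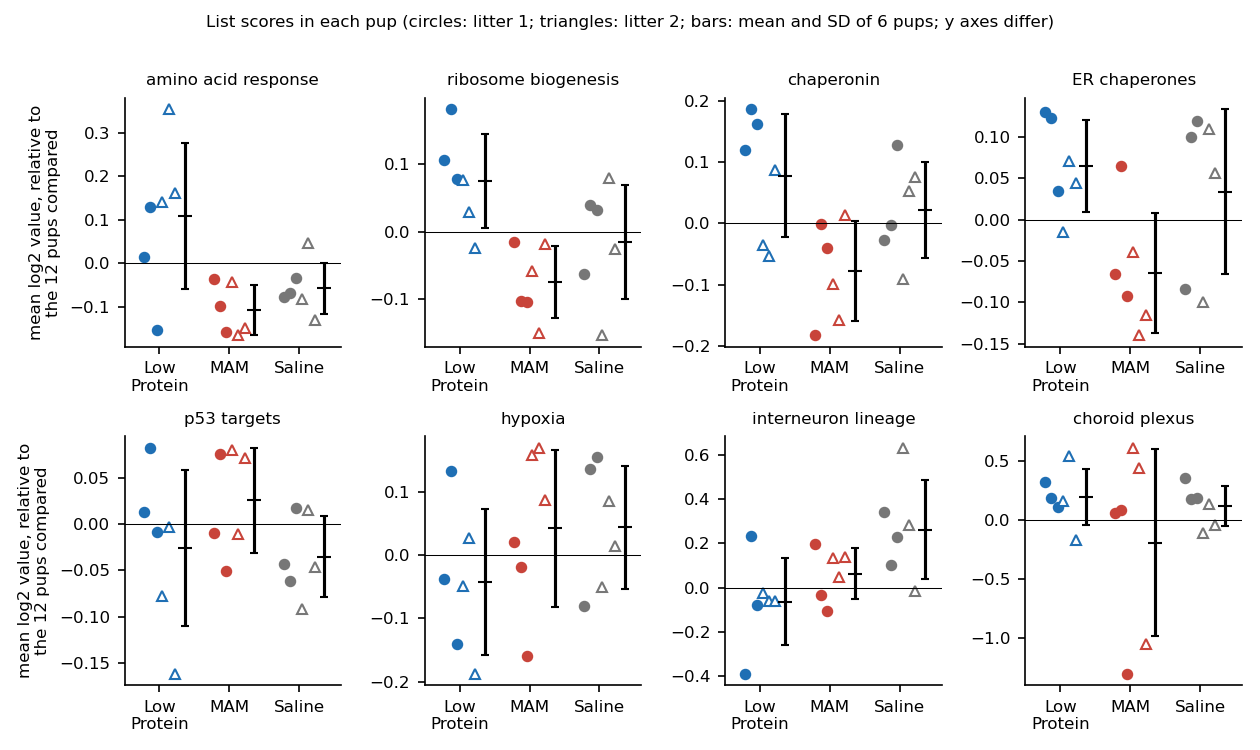
Score of each pup on 8 lists (y axis, mean log2 value of the list's genes relative to the mean of the 12 Low Protein and MAM pups; the axes differ), with circles for litter 1, triangles for litter 2 and bars for the mean and SD of 6 pups. On the amino acid response list Low Protein litter 2 scores 0.14 to 0.35, above every MAM and saline pup, while on the chaperonin list Low Protein litter 1 scores 0.12 to 0.19, above every MAM pup and Low Protein litter 2 but not above saline pup 1.3 at 0.13.

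No gene on the lists below passed the adjusted limma threshold. Over all genes, 1.87% were higher in MAM and 7.94% higher in Low Protein at an unadjusted p under 0.05. Hypoxia genes had 3 of 21 members higher in MAM at an unadjusted p under 0.05, including Car9, with means of 0.172 TPM in MAM and 0.107 in Low Protein. Of the glucocorticoid response genes 2 of 10 were higher in MAM, Ddit4 and the metallothionein Mt2A. Mt2A averaged 2.00 ± 0.243 TPM in MAM and 1.16 ± 0.481 in Low Protein (SD, n = 6; log2 difference −0.87, adjusted p = 0.179), and of the 5 metallothioneins, grouped after their values were seen, 2 were higher in MAM. For mitosis 2 of 27 genes, Ube2c and Ccnb2, were higher in MAM, and for DNA replication 1 of 32, Gins4, was higher in Low Protein. Sterol synthesis had 1 of 25 in each direction, Pmvk on the Low Protein side and Mvd on the MAM side. No interferon response gene of 12 differed at an unadjusted p under 0.05, nor did any adjusted call occur by limma, and Ifit2 and Psmb8 had the smallest p. Immediate early genes had 1 of 13 higher in MAM, Dusp1, with 11.0 TPM against 10.3, and Egr3 came next with a difference of −0.30.

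No marker of neurons or progenitors passed the adjusted limma threshold. Interneuron lineage genes had 0 of 23 members at an unadjusted p under 0.05 and 0 by adjusted limma p, with 19 negative differences and a median of −0.14. Over all genes 3382 of 9763 differences were negative and the median was 0.04, so most of the list lay on the MAM side. Scores on this list ran from −0.39 to 0.23 in Low Protein, −0.10 to 0.20 in MAM and −0.017 to 0.63 in saline, so that the groups compared overlapped. Lhx8, of cholinergic and subpallial neurons, had a difference of −0.997 and ranged from 0.00885 to 0.443 TPM in Low Protein alone. The 17 genes that the study discusses for these models, which were chosen on these samples, had 0 members at an unadjusted p under 0.05. Of the 17, 14 had a negative difference, and the median was −0.12. Dlx1, which specifies interneurons, averaged 26.0 TPM in Low Protein, 26.5 in MAM and 32.0 in saline, Dlx5 5.00, 5.50 and 6.69, Lhx6 1.91, 2.09 and 2.65, and Nkx2-1 2.86, 2.84 and 4.62. Saline pup 2.1 had the highest saline value of each, at 44.8 TPM for Dlx1, 11.0 for Dlx5, 3.08 for Lhx6 and 9.74 for Nkx2-1. For each gene the saline range overlapped with both groups. Nkx2-1 ranged from 0.978 to 5.58 TPM in Low Protein alone. Gad1, which makes GABA, averaged 1.23 TPM in Low Protein and 1.25 in MAM, and the difference of −0.04 had a standard error of 0.195. The synaptic vesicle protein Syp averaged 12.6 TPM in both groups. The methyltransferase-like gene Comtd1 and serine racemase (Srr) differed by −0.06 (standard error 0.089) and 0.10 (standard error 0.064).

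Excitatory neuron markers had 0 of 14 members at an unadjusted p under 0.05, radial glia 0 of 15, synapse 0 of 21, striatal projection neurons 0 of 12, thalamus and diencephalon 0 of 8, endothelium 0 of 10, meninges 0 of 13, glial lineages 0 of 12 and blood 0 of 11, and by adjusted limma p each had 0. Intermediate progenitors had 1 of 10, Mfng, with 2.08 TPM in MAM and 1.73 in Low Protein, and microglia 1 of 13, Tyrobp, with 0.895 and 0.740. At this level 1.87% of all genes were higher in MAM and 7.94% higher in Low Protein. Tissue markers had 1 of 9, Wnt8b, a gene of the cortical hem and hippocampal border, with 0.805 TPM in Low Protein and 0.606 in MAM and no overlap (adjusted p = 0.408). Choroid plexus genes had 10 of 10 positive differences and a median of 0.39, none at an unadjusted p under 0.05, where 65.4% of all genes were positive. The scores of MAM pups 1.3 and 2.3 on this list were −1.30 and −1.05, whereas those of the other 4 MAM pups ran from 0.062 to 0.61. Without MAM pup 1.3 the median log2 difference of the choroid plexus list was 0.14, and without MAM pup 2.3 it was 0.21. The summed level of the list ranged from 134 to 219 TPM in Low Protein, 59.1 to 218 in MAM and 130 to 190 in saline. The summed blood genes ranged from 1926 to 4665 TPM in Low Protein and 2366 to 4249 in MAM, and the summed microglia genes from 12.4 to 29.8 and 18.9 to 23.6. The part of these cell types in the differences above was not tested.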

How the data were processed

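RNA from 24 pups was sequenced (TruSeq Stranded mRNA, paired reads). Per the labels and methods, the authors trimmed reads, aligned them with STAR to rn6 and quantified RefSeq transcripts by expectation maximization. The deposited values are TPM, although the table is named for counts. Each pup sums to 70350.1 with an offset of 0.0001 added, and values fall with a gene's genomic span, so levels of different genes were not compared.

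Here limma 3.58.1 was fitted to log2(TPM + 0.01) over all 24 pups of the Low Protein, MAM, saline and Poly I:C groups. It used a variance trend, the contrast Low Protein minus MAM, and Benjamini-Hochberg adjustment over 9763 genes at 0.05. Fold changes on this scale understate those of low genes. The script was tested on simulated data. Single genes also had an exact permutation test over 924 splits. Lists held 38 groups given at the outset and 7 formed after values were seen, and all members and lists were chosen with earlier results of these data known. Genes named were the 10 per direction with the smallest p and no overlap, the called or 4 best members of the pathway lists, the 2 best of other lists, and the study's genes; others named for their role were chosen after their values were seen. Some genes that this rule names are not reported here. Motifs were searched on both strands of RefSeq promoters. The 30 alternatives covered filters, pseudocounts, scaling, variance models, litter and single pups.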

Additional observations from a re-analysis of the deposited data

Results flagged for a closer look

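A single pup stood apart from the other 5 of its group in 15 of 291 groups of values by Dixon's test, where chance gives about 1 in 20. Mlycd in Low Protein pup 1.1 was 0.982 TPM, against 0.908 to 0.929 in the other 5 pups. Ccdc166 in MAM pup 2.2 was 1.78 TPM, against 1.28 to 1.44 in the other 5 pups. Mcm4 in Low Protein pup 2.3 was 2.46 TPM, against 3.14 to 3.54 in the other 5 pups. Hspa5 in Low Protein pup 1.3 was 35.1 TPM, against 39.7 to 41.2 in the other 5 pups. Mt2A in MAM pup 1.2 was 1.53 TPM, against 1.98 to 2.19 in the other 5 pups. Mt2A in Saline pup 2.3 was 0.732 TPM, against 1.26 to 1.72 in the other 5 pups. Dusp1 in MAM pup 2.3 was 11.4 TPM, against 10.9 to 11.0 in the other 5 pups. Slc17a7 in Saline pup 2.1 was 3.64 TPM, against 4.94 to 5.89 in the other 5 pups. Ahsp in Saline pup 1.3 was 8.35 TPM, against 4.66 to 5.55 in the other 5 pups. Lmo4 in Low Protein pup 1.3 was 6.79 TPM, against 5.13 to 5.46 in the other 5 pups. Dlx1 in Saline pup 2.1 was 44.8 TPM, against 26.1 to 31.5 in the other 5 pups. Lhx2 in Saline pup 2.1 was 3.57 TPM, against 5.84 to 6.84 in the other 5 pups. Hars2 in Low Protein pup 2.1 was 1.99 TPM, against 2.33 to 2.43 in the other 5 pups. Utp3 in Low Protein pup 1.2 was 24.2 TPM, against 16.9 to 19.1 in the other 5 pups. Mt3 in MAM pup 1.3 was 15.9 TPM, against 18.6 to 19.6 in the other 5 pups. None of these genes passed the adjusted threshold between Low Protein and MAM.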

How the results depend on the processing

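The number of genes past the limma adjusted threshold, 6 with all pups, was 3 when only the 12 pups were fitted, 0 on litter means (556 at an unadjusted p under 0.05), and 3 to 13 when single pups were left out (3 without Low Protein 1.2, Low Protein 2.2 or MAM 2.3, 11 without Low Protein 1.1 and 13 without Low Protein 1.3). It was 18 without Low Protein litter 1, 3 without Low Protein litter 2, 2 without MAM litter 1 and 1 without MAM litter 2. The 958 genes at an unadjusted p under 0.05 became 560 with a mean above 1 TPM, 556 on litter means, 452 without Low Protein litter 1, 1763 without Low Protein litter 2, 500 without MAM litter 1 and 594 without MAM litter 2. The share higher in Low Protein, 80.9%, was 54.5% with median-of-ratios scaling, 56.8% under upper-quartile scaling, 53.5% without Low Protein litter 1, 91.4% without Low Protein litter 2 and 69.0% without MAM litter 1. The cause was not tested. Cdkn1a passed in 28 of 29 alternatives, Tars in 26 of 30, Lars in 25 of 29, Mthfd2 in 20 of 29, Pmm1 in 19 of 30 and Nars in 10 of 30. With median-of-ratios scaling 4 genes passed, namely Aen, Cdkn1a, Lars and Tars, and Mthfd2, Nars and Pmm1 did not. With upper-quartile scaling 6 passed, with Aen among them and without Nars.

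With the replicate number as a block, 8 genes passed. Numbers are not known to pair pups: same-numbered deviations correlated from −0.177 to 0.416, and 1 of 6 pups correlated best with its own number.

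Differences that turned sign belonged to genes that did not pass. Without Low Protein litter 2, Atf5 was −0.059, Btg2 0.18, Dlx1 0.015 and Phgdh −0.068. Without Low Protein litter 1, Lhx2 was −0.070, Nkx2-1 0.16, Psmb8 0.22 and Syp 0.016. Without MAM litter 2, Bax was −0.019, Btg2 0.058, Dlx1 0.026 and Gabbr1 −0.014. Without MAM litter 1, Lhx2 was −0.038 and Syp 0.051. Under median-of-ratios scaling, Bax was −0.0021, Gabbr1 −0.024 and Lhx2 −0.034, and under upper-quartile scaling Gabbr1 was −0.020 and Lhx2 −0.030. When single pups were left out, Igf2 ranged from −0.02 to 0.50, Eif2s3y from −0.77 to 1.07, Comtd1 from −0.095 to 0.012, Nkx2-1 from −0.44 to 0.059, Dlx1 from −0.073 to 0.028, Gad1 from −0.094 to 0.056, Gabbr1 from −0.020 to 0.040, Lhx2 from −0.036 to 0.058, Syp from −0.033 to 0.026, Bax from −0.0083 to 0.066 and Btg2 from −0.057 to 0.090. Depth was estimated from value steps, with 49.4% to 54.3% of low values whole within 0.05, and limits genes near 0.1 TPM.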
